A study of Mus musculus with 16 samples.

Results

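Translational efficiency, the change of ribosome footprints beyond the change of the mRNA they sit on, was compared between KM_4A2cr and KM_NTC cells with all 16 of the 16 libraries, and 8669 of 15235 genes with footprint counts had the 10 or more counts in every library that the comparison needed. KM cells are a line grown from the lung tumours of 1 male mouse at clinical endpoint, and both lines carry the MYC transgenes of the allele Rosa26LSL-MYC/LSL-MYC. The rest of their shared genotype is not reported here. KM_NTC cells received a lentiviral CRISPR vector with a non-targeting guide, and KM_4A2cr cells the same vector with a guide against the coding region of Eif4a2. After puromycin selection, KM_4A2cr was assembled from 4 clones that lacked eIF4A2 on a western blot. Both lines were left untreated. Ribosome-protected fragments (RPFs, mRNA pieces that an 80S ribosome shields from RNase I) and cytoplasmic total RNA came from 1 lysate per line and replicate, with 4 replicates made on different days.

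eIF4A2 is a DEAD-box RNA helicase. Its close relative eIF4A1 unwinds the 5′ end of mRNAs as part of the cap-binding complex eIF4F, whereas eIF4A2 is best known for joining the CCR4-NOT complex, which represses translation and shortens poly(A) tails. Footprints can change because there is more or less mRNA to read, or because each mRNA carries more or fewer ribosomes, and translational efficiency counts the latter. The comparison asks which mRNAs were read by more or fewer ribosomes per mRNA once Eif4a2 was targeted.

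The depth was 4512403 to 9621848 RPF counts and 5350920 to 9312624 total RNA counts per library. Eif4a2 (ENSMUSG00000022884.17, chromosome 16) itself had 100.1, 124, 101 and 387 RPF CPM (counts scaled to a common library size of 1e+06) in KM_NTC replicates 1 to 4 and 51.9, 89.5, 75.4 and 338 in KM_4A2cr. Each KM_4A2cr library lay below the KM_NTC library of its replicate, although the groups overlapped because both replicate 4 libraries were high. Its RPF log2 change was -0.51 (adjusted p = 0.0877) in edgeR (quasi-likelihood test, p-values adjusted by Benjamini and Hochberg), its total RNA change -0.19 (adjusted p = 0.449) and its translational efficiency change -0.31 (adjusted p = 0.145). Most footprints and transcripts of the gene thus remained countable, and the counts of a guide-cut coding region do not measure the protein. Eif4a1 and Eif4a3 had translational efficiency changes of -0.14 (adjusted p = 0.506) and -0.13 (adjusted p = 0.574). The replicate 4 libraries of both lines stood apart from the others. The translational efficiency changes of pairs 1 to 3 correlated across genes at 0.211 to 0.310, and that of pair 4 with them at 0.0663 to 0.0841, where genes are not independent replicates. All 8 epithelial markers were counted, at a summed total RNA of 6564 to 6810 CPM in KM_NTC and 7175 to 8391 in KM_4A2cr, without overlap. Of 10 alveolar type II markers 5 were counted. Their summed total RNA was 131 to 151 CPM in KM_NTC and 164 to 178 in KM_4A2cr, also without overlap. Abca3 had 90.1 to 157 total RNA CPM and Etv5 17.4 to 45.4, whereas Slc34a2, Napsa and Sftpd did not exceed 0.416 CPM in any library. Fibroblast markers, of which only 2 of 8 were counted, summed to at most 9.32 CPM, and endothelial markers (5 of 6 counted) to at most 6.81. Leukocyte markers (6 of 8 counted) reached 152 CPM, of which Cd68 made up 151 CPM, and Adgre1 and Lyz2 were at 0 in every total RNA library. The part of the epithelial and alveolar type II differences in the results was not tested. In bulk lysates, fewer cells that make an mRNA and less of that mRNA per cell cannot be told apart.

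At an adjusted p under 0.1, the translational efficiency of 164 genes was higher in KM_4A2cr cells (1.89% of all tested) and that of 89 was lower (1.03%). RPFs alone rose for 574 genes (6.62%) and fell for 320 (3.69%), and total RNA rose for 336 (3.88%) and fell for 110 (1.27%). The changes in translational efficiency were modest. Those called higher ran from 0.30 to 0.91 on the log2 scale with a median of 0.48, those called lower from -0.99 to -0.32 with a median of -0.47, and all genes tested had a median of -0.02 and an SD of 0.21. Of the called genes, 153 of 164 and 84 of 89 had the same sign in all 4 replicate pairs. They were called from these same pairs, so such agreement was favoured in advance and is no separate support. The interaction model, which has a term for each lysate and each replicate, leaves 3 residual degrees of freedom. Without the replicate block no gene passed in either direction (434 at an unadjusted p under 0.05, against 1292 with it), and DESeq2 called 86 higher and 36 lower, of which 117 of 122 were among the 253 genes called by edgeR. Leaving out 1 replicate left 4 higher and 3 lower without replicate 1, 3 and 0 without replicate 2, and 12 and 3 without replicate 3. Without replicate 4 the counts grew to 517 and 309, and 242 of the 253 genes were among them.

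The genes that gained footprints per mRNA mostly moved further in footprints than in mRNA. Among the 164 genes called higher the median RPF change was 0.46 and the median total RNA change -0.04, and 143 moved further in RPFs than in total RNA. Among the 89 called lower the median RPF change was -0.32 and the median total RNA change 0.19, and 51 moved further in RPFs. These shares, 87.2% and 57.3%, stand beside 59.1% of all genes tested. Total RNA lay above 0 in 70 of these 89 genes. Translational efficiency and total RNA share the total RNA libraries, so an error in the latter moves both in opposite directions. Of 446 genes called in total RNA, 442 had an RPF change of the same sign, 307 were also called in RPFs in that direction, and 21 were called in translational efficiency. RPFs and total RNA were called in opposite directions for 0 genes by edgeR, and at an unadjusted p under 0.05 for 4 of 1020 genes.

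Sorting the genes by their 3 calls gave 7 kinds of change. The most numerous was a call in RPFs alone (507 genes, 269 higher and 238 lower), and 126 genes were called in total RNA alone (84 higher, 42 lower). In 299 genes, termed mRNA-led, RPFs and total RNA moved together with no call in translational efficiency (238 up, 61 down), and 133 of these had a translational efficiency change within 0.1 of 0. In 80 genes RPFs and translational efficiency were called in 1 direction without a call in total RNA (60 up, 20 down), the kind termed translation only here. In 8 genes, termed reinforced, all 3 measures moved in 1 direction (7 up, 1 down), and in 13 the total RNA moved one way, translational efficiency the other, and footprints were not called. A further 152 genes were called in translational efficiency alone (91 higher, 61 lower).

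**Figure D1:**
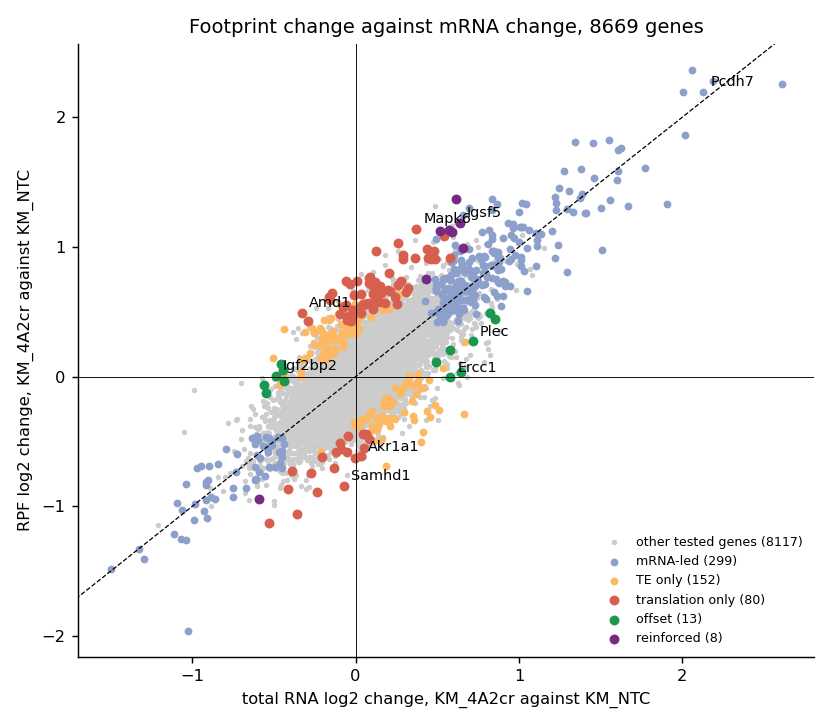
Each point is 1 of the 8669 genes tested, with its log2 change in total RNA on the horizontal axis and in RPFs on the vertical axis, both KM_4A2cr against KM_NTC, coloured by kind of change as defined in the text. Points above the dashed line of equal change gained footprints beyond their mRNA, and the 299 mRNA-led genes lie along the line at both ends.

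The strongest statistical result was Amd1 (ENSMUSG00000075232.7, chromosome 10), S-adenosylmethionine decarboxylase, which makes the aminopropyl donor for spermidine and spermine. Its RPFs were 51.9, 48.0, 59.0 and 33.9 CPM in KM_NTC replicates 1 to 4 and 68.5, 80.2, 77.8 and 45.2 in KM_4A2cr, whereas its total RNA was 392, 225, 294 and 149 CPM and 283, 216, 247 and 102. The footprints were higher and the mRNA lower in KM_4A2cr in each replicate. RPF CPM per total RNA CPM was 0.133, 0.214, 0.201 and 0.228 in KM_NTC and 0.243, 0.372, 0.314 and 0.445 in KM_4A2cr, so the 4 ratios of KM_4A2cr all lay above the 4 of KM_NTC. Translational efficiency rose by 0.81 (standard error 0.10, adjusted p = 0.000537), with RPFs at 0.49 (adjusted p = 0.0651) and total RNA at -0.33 (adjusted p = 0.227). Amd1 is known for a short upstream open reading frame that stalls ribosomes when polyamines are plentiful. It is shown here because this frame lies in the 5′ leader of the gene with the lowest p, at bases 14 to 34 after the RefSeq start (chr10:40302151-40302179 of GRCm38.p6, minus strand), with the frame from its ATG to its stop in capitals and 6 codons before the stop.
Amd1 upstream open reading frame: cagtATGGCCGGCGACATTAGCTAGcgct

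An ATG followed in frame by TAA, TAG or TGA within the first 50 bases after the RefSeq start, read on the transcribed strand, was present in 10 of the 133 genes called higher for which a start was found (7.52%), in 549 of 7049 of all genes tested (7.79%) and in 11.7% of all 32851 start windows. The share among the genes called higher was thus close to that among the genes tested. These shares count a gene once if any of its annotated starts has the frame. The share of all start windows counts single starts, those of untested genes included, so it cannot be set against them directly. A pair of regulators of the same pathway were also called. Azin1 (ENSMUSG00000037458.16), the inhibitor of antizyme, had 9.46, 9.06, 11.0 and 8.78 RPF CPM in KM_NTC and 15.9, 13.2, 17.1 and 14.5 in KM_4A2cr, without overlap, and a translational efficiency change of 0.54 (standard error 0.14, adjusted p = 0.0753) with total RNA at 0.15 (adjusted p = 0.579). Oaz1 (ENSMUSG00000035242.16), the antizyme that binds ornithine decarboxylase and whose full-length protein needs a frameshift, had ratios of 0.463, 0.419, 0.447 and 0.596 in KM_NTC and 0.539, 0.577, 0.525 and 0.822 in KM_4A2cr and a change of 0.34 (adjusted p = 0.0948). Of the 22 polyamine and iron genes tested, these 3 were called higher (13.6%, beside 1.89% of all genes) and 0 lower. The counts were 3 and 2 at an unadjusted p under 0.05 and 1 and 0 by DESeq2. Odc1, ornithine decarboxylase, Srm and Sms, the spermidine and spermine synthases, had changes of 0.16, 0.16 and 0.12 that did not pass, and Fth1 and Ftl1, the ferritin subunits, had changes of -0.31 and -0.54 that did not pass either. The median of the list was 0.0031, beside -0.02 for all genes.

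**Figure D2:**
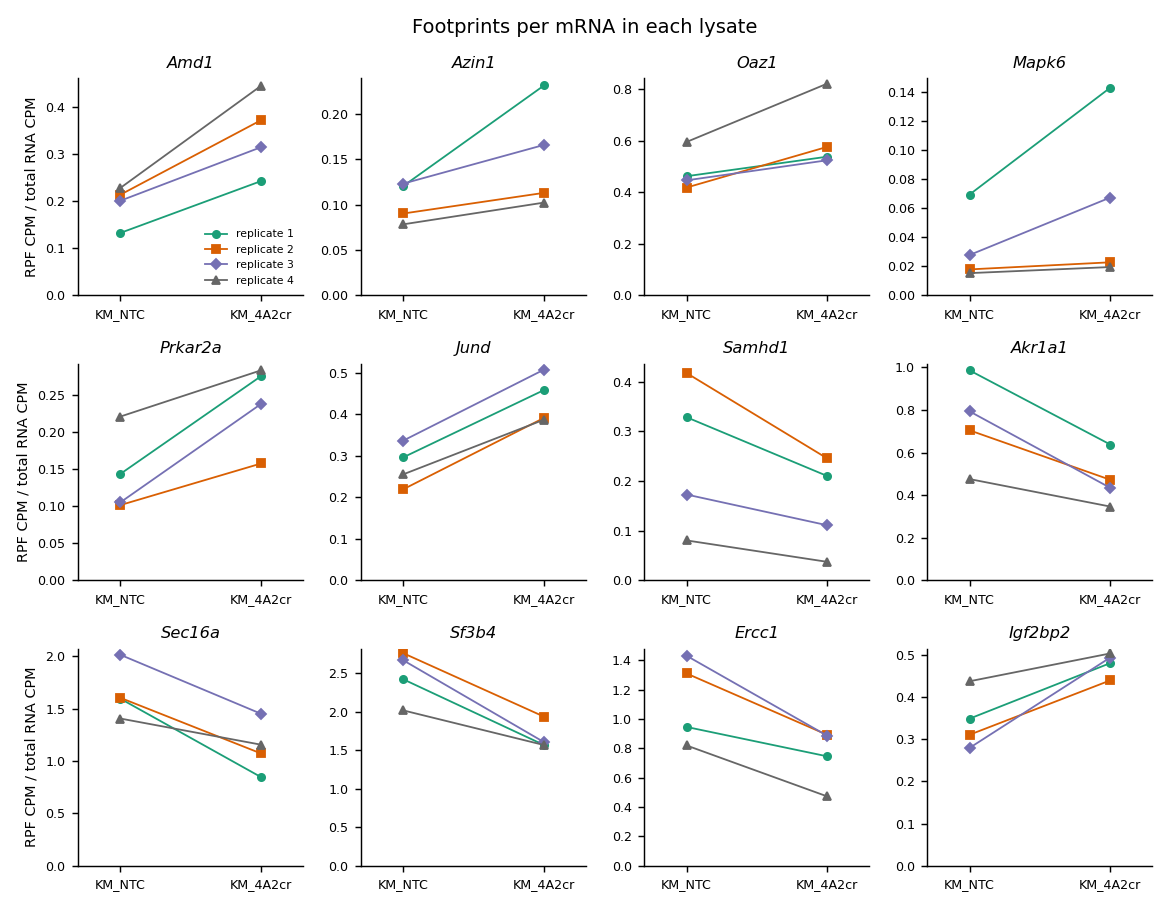
RPF CPM divided by total RNA CPM of the same lysate is plotted on a linear axis from 0 for 12 genes, with a line joining the KM_NTC and KM_4A2cr lysates of each of the 4 replicates. All lines rise for Amd1, Azin1, Oaz1, Mapk6, Prkar2a, Jund and Igf2bp2 and fall for Samhd1, Akr1a1, Sec16a, Sf3b4 and Ercc1.

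Mapk6 (ENSMUSG00000042688.17, chromosome 9), the atypical MAP kinase ERK3, had 43.9, 7.55, 11.5 and 6.27 RPF CPM in KM_NTC and 84.4, 11.2, 43.7 and 13.1 in KM_4A2cr. Replicate 1 was the highest in both lines, and the KM_4A2cr library was the higher of each pair. Its translational efficiency change was 0.88 (standard error 0.14, adjusted p = 0.00584), with total RNA at 0.37 (adjusted p = 0.291). Prkar2a (ENSMUSG00000032601.14, chromosome 9), a regulatory subunit of protein kinase A, had 17.9, 8.86, 9.88 and 11.3 RPF CPM and 31.7, 12.0, 20.5 and 17.1, against 124, 86.9, 93.5 and 51.0 and 115, 75.6, 86.0 and 60.2 total RNA CPM. Footprints were higher in each pair, while total RNA was lower in 3 of the 4, and the change in translational efficiency was 0.82 (standard error 0.14, adjusted p = 0.00695). Of 54 tested genes of eIF4F, mTORC1 and MAPK signalling, 1 was called higher (1.85%, beside 1.89% of all genes) and 0 lower by edgeR. At an unadjusted p under 0.05 the counts were 7 higher and 5 lower.

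Over 57 immediate early and labile regulators, 2 were called higher (3.51%, beside 1.89% of all genes) and 1 lower (1.75%, beside 1.03%), with a median of -0.06, and DESeq2 called 1 and 0. Klf4 (ENSMUSG00000003032.9) had a translational efficiency change of 0.78 (adjusted p = 0.0141) with total RNA at -0.16 (adjusted p = 0.585). Jund (ENSMUSG00000071076.9, chromosome 8), a subunit of AP-1, had ratios of 0.296, 0.220, 0.337 and 0.255 in KM_NTC and 0.458, 0.391, 0.507 and 0.387 in KM_4A2cr. Its translational efficiency rose by 0.66 (standard error 0.12, adjusted p = 0.00783) and its RPFs by 0.94 (adjusted p = 0.0267). Junb, another AP-1 subunit, was called the other way at -0.36 (adjusted p = 0.0844), with RPFs at 0.02 (adjusted p = 0.931) and total RNA at 0.38 (adjusted p = 0.119).

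Ssx2ip, a centriolar satellite protein, had the highest change of all genes called, 0.91 (adjusted p = 0.0163), of which total RNA at -0.44 (adjusted p = 0.198) made up about as much as RPFs at 0.37 (adjusted p = 0.179). Atp13a2, a lysosomal polyamine-transporting ATPase, had 0.84 (adjusted p = 0.0424), Tmem38b, an endoplasmic reticulum (ER) cation channel, 0.77 (adjusted p = 0.00695), and Lrrc8b, a subunit of volume-regulated anion channels, 0.73 (adjusted p = 0.00695). Ap1ar, which binds the AP-1 coat, had 0.77 (adjusted p = 0.0264), Cep83, a protein of centriole appendages, 0.75 (adjusted p = 0.0327), and Gm12184 0.76 (adjusted p = 0.0802). Where total RNA was within 0.15 of 0, 79 genes were called higher and 28 lower in translational efficiency, and Mpp6, a membrane scaffold, with 0.71 (adjusted p = 0.00584), and Rcan3, a calcineurin regulator, with 0.70 (adjusted p = 0.0391) were among the largest of them. Rcan3 had 7.79, 6.54, 5.70 and 7.11 RPF CPM in KM_NTC and 10.8, 11.3, 12.0 and 12.4 in KM_4A2cr, with no overlap.

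Genes that lost footprints per mRNA were fewer. Samhd1 (ENSMUSG00000027639.17, chromosome 2), the phosphohydrolase that degrades deoxynucleotides, had 46.0, 55.0, 33.8 and 26.1 RPF CPM in KM_NTC and 32.4, 27.5, 18.8 and 12.4 in KM_4A2cr, and 140.1, 132, 196 and 324 and 154, 112, 169 and 329 total RNA CPM. Footprints were lower in each replicate pair and total RNA in 2 of the 4, and translational efficiency fell by 0.75 (standard error 0.11, adjusted p = 0.00526). Akr1a1 (ENSMUSG00000028692.15, chromosome 4), an aldehyde reductase, had 170.2, 132, 135 and 76.3 RPF CPM and 84.4, 81.8, 78.8 and 80.7. Its ratios of 0.985, 0.704, 0.793 and 0.476 in KM_NTC and 0.638, 0.472, 0.435 and 0.347 in KM_4A2cr gave a translational efficiency change of -0.64 (standard error 0.10, adjusted p = 0.00526) with total RNA at 0.03 (adjusted p = 0.943). Sec16a (ENSMUSG00000026924.18, chromosome 2), which organises ER exit sites, had 97.9, 121, 121 and 95.3 RPF CPM in KM_NTC and 56.5, 81.2, 66.8 and 63.9 in KM_4A2cr, without overlap, and a change of -0.58 (standard error 0.11, adjusted p = 0.0168). Samhd1 and Sec16a are on chromosome 2, whose 701 tested genes had a median change of -0.21 in RPFs and -0.18 in total RNA but of -0.03 in translational efficiency. Of these 701 genes, 7 were called lower and 10 higher in translational efficiency, beside 1.03% and 1.89% of all genes.

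Further falls were BC005537 at -0.90 (adjusted p = 0.0442), Ppox, an enzyme of haem synthesis, at -0.72 (adjusted p = 0.0966), Ctc1, of the telomere CST complex, at -0.71 (adjusted p = 0.0638), 5031439G07Rik at -0.70 (adjusted p = 0.0681), and Brca1, of homologous recombination, at -0.68 (adjusted p = 0.0365). Elp5, an Elongator subunit, had -0.63 (adjusted p = 0.0574), Ndufaf7, an assembly factor of respiratory complex I, -0.63 (adjusted p = 0.0878), and Ska3, of the kinetochore, -0.62 (adjusted p = 0.0848). Among these, Elp5 was called in RPFs, at -0.63 (adjusted p = 0.0386), and the others were not. The mRNA of Ppox, Ctc1, 5031439G07Rik, Brca1 and Ska3 lay above 0, between 0.35 and 0.48, without passing the test. Ndufaf7 had an adjusted p of 0.110 without replicate 4.

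Footprints were not called while mRNA and translational efficiency moved apart in 13 genes, termed offset. In 6 of them the mRNA fell and translational efficiency rose. Igf2bp2 (ENSMUSG00000033581.18, chromosome 16), an mRNA-binding protein, had 165, 166, 163 and 147 total RNA CPM in KM_NTC and 100.3, 124, 106 and 129 in KM_4A2cr, which did not overlap, beside 57.6, 51.5, 45.5 and 64.4 and 48.2, 54.4, 52.2 and 65.2 RPF CPM, which did. Total RNA changed by -0.49 (adjusted p = 0.0908), RPFs by 0.0084 (95% interval -0.28 to 0.30) and translational efficiency by 0.50 (adjusted p = 0.0327). The 278 tested genes of chromosome 16, which also holds Eif4a2, had a median change of -0.12 in total RNA and -0.13 in RPFs. Their median in translational efficiency was 0.0028. Ppp1r2, an inhibitor of protein phosphatase 1, had a total RNA change of -0.56 (adjusted p = 0.0664) and an RPF change of -0.06 (95% interval -0.35 to 0.23). Ppp3ca, the catalytic subunit of calcineurin, had -0.55 (adjusted p = 0.0493) and -0.13 (95% interval -0.41 to 0.16). Orc2, of the origin recognition complex, had -0.44 (adjusted p = 0.0859) in total RNA and -0.03 (95% interval -0.34 to 0.28) in RPFs, Epc2, of a histone acetyltransferase complex, -0.44 (adjusted p = 0.0864) and 0.05 (95% interval -0.33 to 0.43), and Tbc1d13, a Rab GTPase-activating protein, -0.45 (adjusted p = 0.0859) and 0.10 (95% interval -0.24 to 0.43).

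In the other 7 offset genes the mRNA rose and translational efficiency fell. Ercc1 (ENSMUSG00000003549.10, chromosome 7), a DNA repair nuclease subunit, had 24.5, 19.3, 22.1 and 14.3 total RNA CPM in KM_NTC and 32.0, 27.2, 36.1 and 24.5 in KM_4A2cr, and 23.2, 25.4, 31.7 and 11.7 and 23.9, 24.3, 32.0 and 11.6 RPF CPM. The lines overlapped in both. Total RNA rose by 0.58 (adjusted p = 0.0540) while RPFs changed by -0.0056 (95% interval -0.28 to 0.27), and translational efficiency was -0.56 (adjusted p = 0.0559). Kmt2a, a histone methyltransferase, had 0.49 (adjusted p = 0.0769) in total RNA and 0.11 (95% interval -0.19 to 0.42) in RPFs. The footprints of 4 others lay further from 0. Plec, a cytoskeletal linker, had an RPF change of 0.27 (95% interval -0.15 to 0.69) beside 0.72 (adjusted p = 0.0271) in total RNA, Ecm1, a secreted matrix protein, 0.21 (95% interval -0.10 to 0.51) beside 0.58 (adjusted p = 0.0531), Mt2, a metallothionein, 0.44 (95% interval 0.10 to 0.79) beside 0.85 (adjusted p = 0.0523), and Adgre5, an adhesion receptor, 0.49 (95% interval 0.05 to 0.93) beside 0.82 (adjusted p = 0.0714). Plec and Kmt2a had adjusted p of 0.109 and 0.125 in translational efficiency without replicate 4. The total RNA of the lines did not overlap in 4 of the 13 genes and RPFs in 0. The genes were selected by a call in total RNA without one in RPFs, which favours this difference. Overlap was not counted over all genes tested. The RPF intervals of Mt2 and Adgre5, which are not adjusted for the number of genes, lie above 0, so footprints not called does not mean footprints that did not change.

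Taken by size instead, 29 genes called in total RNA had an RPF change within 0.2 of 0, of which 16 had lower and 13 higher mRNA, and 9 were called in translational efficiency (6 higher, 3 lower). The largest mRNA change among them was that of Rps6ka6 (ENSMUSG00000025665.17), a ribosomal S6 kinase, with 9.10, 13.0, 9.25 and 7.54 total RNA CPM in KM_NTC and 3.44, 6.93, 6.82 and 2.57 in KM_4A2cr, without overlap. Its total RNA fell by 0.99 (adjusted p = 0.0524), its RPFs were 3.52, 4.03, 2.64 and 2.09 and 2.58, 2.99, 3.11 and 3.42 CPM, and its translational efficiency of 0.88 (adjusted p = 0.132) did not pass. Klhl5, Cep70 and Vav3 had mRNA changes of -0.70 (adjusted p = 0.0344), -0.57 (adjusted p = 0.0958) and -0.56 (adjusted p = 0.0577). Higher mRNA with near-flat footprints was largest in Sipa1l2 at 0.82 (adjusted p = 0.0501), Ang, a secreted ribonuclease, at 0.70 (adjusted p = 0.0934), Zmym6 at 0.67 (adjusted p = 0.0400) and Frmd5 at 0.67 (adjusted p = 0.0658). None of these 8 genes passed in translational efficiency, with edgeR adjusted p from 0.132 to 0.370.

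Reinforced genes, where more mRNA came with more footprints per mRNA, were 7. Lrrc8b had RPFs of 1.37 (adjusted p = 0.0190) and total RNA of 0.62 (adjusted p = 0.0876). Ei24 (ENSMUSG00000062762.18, chromosome 9), an ER membrane protein, had 64.6, 18.4, 30.05 and 40.6 RPF CPM in KM_NTC and 130.3, 33.0, 74.3 and 103 in KM_4A2cr, beside 145, 73.8, 100.1 and 124 and 212, 92.7, 141 and 202 total RNA CPM, and a translational efficiency change of 0.60 (standard error 0.10, adjusted p = 0.00695). Mgat4b, a Golgi N-glycan branching enzyme, had RPFs of 1.11 (adjusted p = 0.00511), Tmem192, a lysosomal membrane protein, 1.13 (adjusted p = 0.0115), Erlin1, of ER-associated degradation, 0.99 (adjusted p = 0.0193), Reep4, an ER-shaping protein, 0.75 (adjusted p = 0.0203), and Igsf5, an adhesion protein, 1.19 (adjusted p = 0.0170). Only the RPFs and total RNA of Igsf5 did not overlap between the lines.

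Larger changes than any of these were carried by mRNA. Pcdh7 (ENSMUSG00000029108.15, chromosome 5), a protocadherin, had 92.6, 29.4, 52.3 and 38.7 RPF CPM in KM_NTC and 445, 146, 332 and 109 in KM_4A2cr, with no overlap. RPFs rose by 2.20 (adjusted p = 0.00268), total RNA by 2.13 (adjusted p = 0.00219), and the translational efficiency change was 0.07 (95% interval -0.13 to 0.26). Fcna, a ficolin, had 2.28 (adjusted p = 0.00268) in RPFs and 2.19 (adjusted p = 0.00349) in total RNA. Hexa, a lysosomal hexosaminidase, had 1.59 (adjusted p = 0.00343) and 1.60 (adjusted p = 0.00349), but its replicate 4 libraries lay at 531 and 1139 RPF CPM against 54.9, 36.9 and 59.0 in the other KM_NTC replicates. On the lower side Serpinb9b, a serine protease inhibitor, had -1.48 (adjusted p = 0.00637) and -1.50 (adjusted p = 0.00341), Lgals9, a galectin, -1.40 (adjusted p = 0.00637) and -1.29 (adjusted p = 0.00911), and Nid1, a basement membrane protein, -1.32 (adjusted p = 0.0193) and -1.33 (adjusted p = 0.0270). Cdkn2a, the locus of p16 and p19ARF, fell in RPFs by 1.09 (adjusted p = 0.00677) and in total RNA by 0.91 (adjusted p = 0.0271), with -0.14 (adjusted p = 0.639) in translational efficiency. Cdkn1a, which encodes p21, rose in total RNA by 0.63 (adjusted p = 0.0984) with RPFs at 0.40 (adjusted p = 0.330), and Ebag9 had a translational efficiency change of 0.46 (adjusted p = 0.128).

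Lists of the secretory pathway had medians above 0 in both RPFs and total RNA and near 0 in translational efficiency. Of 125 glycosylation genes tested, 26 rose (20.8%, beside 6.62% of all genes) and 1 fell (0.8%, beside 3.69%) in RPFs. The medians were 0.30 in RPFs, 0.27 in total RNA and 0.03 in translational efficiency, beside -0.01, 0.0077 and -0.02 for all genes. In translational efficiency 6 were called higher (4.8%, beside 1.89%) and 0 lower (19 and 6 at an unadjusted p under 0.05, 5 and 0 by DESeq2). Mgat2 (ENSMUSG00000043998.11), a Golgi enzyme of complex N-glycans, had 202, 35.9, 77.6 and 56.5 RPF CPM in KM_NTC and 441, 71.7, 205 and 68.1 in KM_4A2cr and a change of 0.47 (standard error 0.10, adjusted p = 0.0242). Csgalnact2, of chondroitin sulfate synthesis, had 0.46 (adjusted p = 0.0343), Slc35a3, a Golgi nucleotide sugar transporter, 0.44 (adjusted p = 0.0365), and Mgat4b 0.52 (adjusted p = 0.0440). Man1a2 and Man2a1, mannosidases that trim N-glycans, were also called.

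Of 59 ER folding and degradation genes, 13 rose in RPFs (22%, beside 6.62% of all genes) and 8 in total RNA. Their medians were 0.39 and 0.33, with 0.05 in translational efficiency. Dnajc1, an ER co-chaperone, was the member called in translational efficiency (1.69% of the list, beside 1.89%), at 0.35 (adjusted p = 0.0878) (2 higher and 5 lower at an unadjusted p under 0.05, 0 by DESeq2). Of 75 lysosome and V-ATPase genes 17 rose in RPFs (22.7%) and 9 in total RNA. Tmem192 was called in translational efficiency (1.33% of the list), at 0.55 (adjusted p = 0.0945). The extracellular matrix and integrin list (56 tested) had 14 higher (25%) and 2 lower (3.57%, beside 3.69%) in RPFs and 12 higher and 1 lower in total RNA. Its median in translational efficiency was -0.08, with Ecm1 as the only call (1.79% of the list, beside 1.03%). That median was -0.02 without replicate 3 and -0.03 without replicate 4, where 0 and 5 members were called lower. Of 149 solute carriers 32 rose (21.5%, beside 6.62% of all genes) and 3 fell (2.01%, beside 3.69%) in RPFs. In translational efficiency 4 were called higher (2.68%, beside 1.89%) and 1 lower (0.671%, beside 1.03%), near the shares over all genes, Slc35a3 and Slc25a37 included. Slc30a4, a zinc transporter, had 0.60 (adjusted p = 0.00695), Slc44a1, a choline transporter, 0.33 (adjusted p = 0.0752), and Slc20a1, a phosphate transporter, -0.32 (adjusted p = 0.0889). Among 114 genes of ER translocation and Golgi transport 4 were called higher (3.51%, beside 1.89%) and 1 lower (0.877%, beside 1.03%). These were the golgins Tmf1 at 0.51 (adjusted p = 0.0168) and Golga5 at 0.48 (adjusted p = 0.0424), Sec63 of the translocon at 0.32 (adjusted p = 0.0962), Srp9 of the signal recognition particle at 0.41 (adjusted p = 0.0970), and Sec16a in the other direction.

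**Figure D3:**
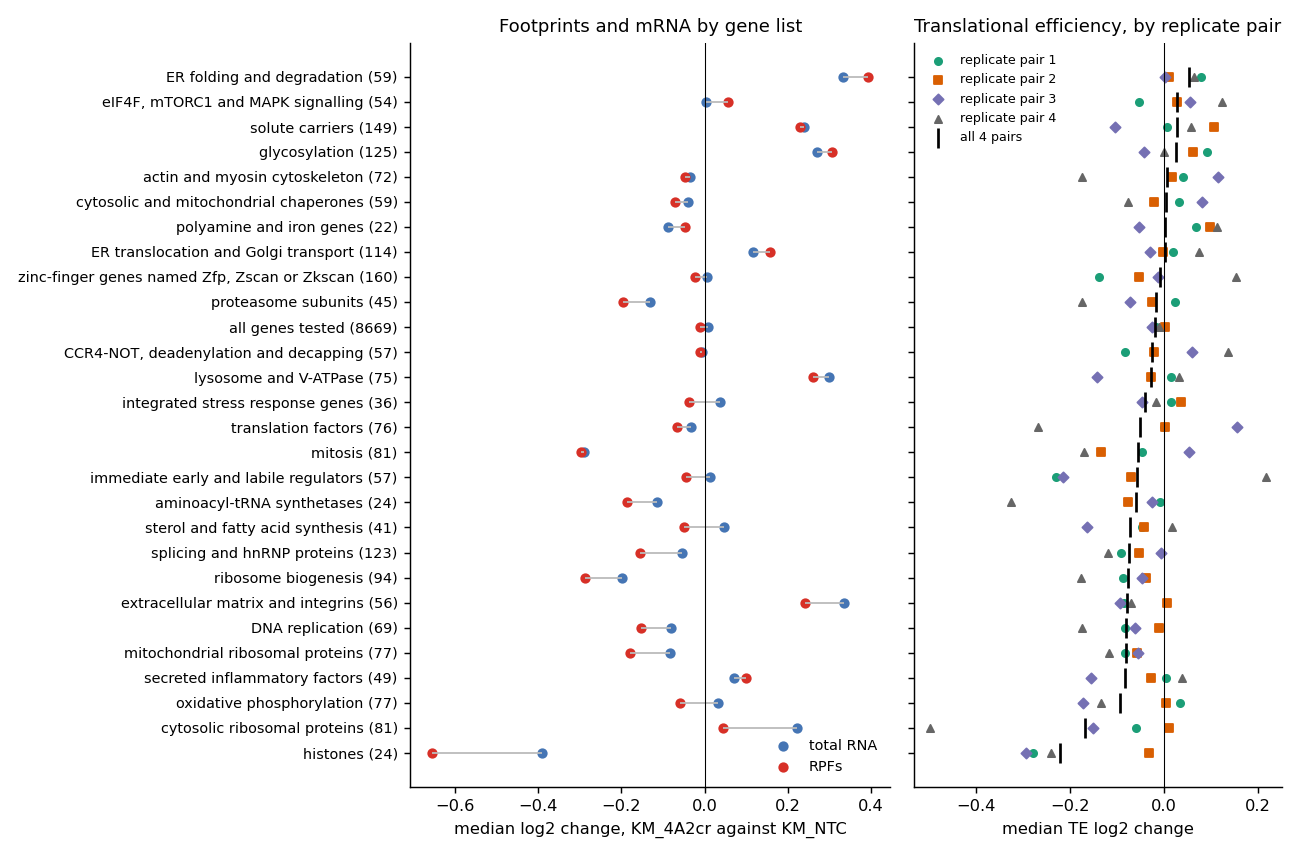
For each of 27 gene lists and all genes, with the number tested in brackets, the left panel gives the median log2 change in total RNA and RPFs and the right panel that in translational efficiency (TE), for each replicate pair and for all 4 pairs. Glycosylation genes lie at 0.30 in RPFs and 0.27 in total RNA with 0.03 in TE, histones lie to the left in all 3, and ribosomal proteins have total RNA at 0.22 with RPFs at 0.04.

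Ribosomal protein genes had a median below 0 in translational efficiency, above 0 in total RNA and near 0 in RPFs. Of 81 cytosolic ribosomal protein genes tested, 6 were called lower (7.41%, beside 1.03% of all genes) and 0 higher in translational efficiency by edgeR (26 and 0 at an unadjusted p under 0.05, 7 and 0 by DESeq2), and 75 lay below 0. The median was -0.17 in translational efficiency, 0.04 in RPFs and 0.22 in total RNA, and 0 members were called in RPFs or total RNA (6 and 3 at an unadjusted p under 0.05). Rps29 (ENSMUSG00000034892.9) had ratios of 0.156, 0.231, 0.258 and 0.172 in KM_NTC and 0.113, 0.215, 0.159 and 0.130 in KM_4A2cr and a change of -0.42 (standard error 0.10, adjusted p = 0.0559). Rps15 had -0.42 (adjusted p = 0.0574) and Rpl37a -0.37 (adjusted p = 0.0745), and Rpl34 was also among the 6. The shift was uneven across replicates. The list's median was -0.06, 0.01, -0.15 and -0.50 in pairs 1 to 4, with 54, 36, 61 and 79 of the 81 genes below 0. Without replicate 4 the median was -0.04, 13 members were called lower and 2 higher, and 30 of 81 lay above 0, and the median stayed below 0 under the 3 other scalings (-0.13 to -0.16). Ribosomal protein mRNAs begin with an oligopyrimidine tract through which mTORC1 controls their translation, and many have processed pseudogenes that can share reads.

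**Figure D4:**
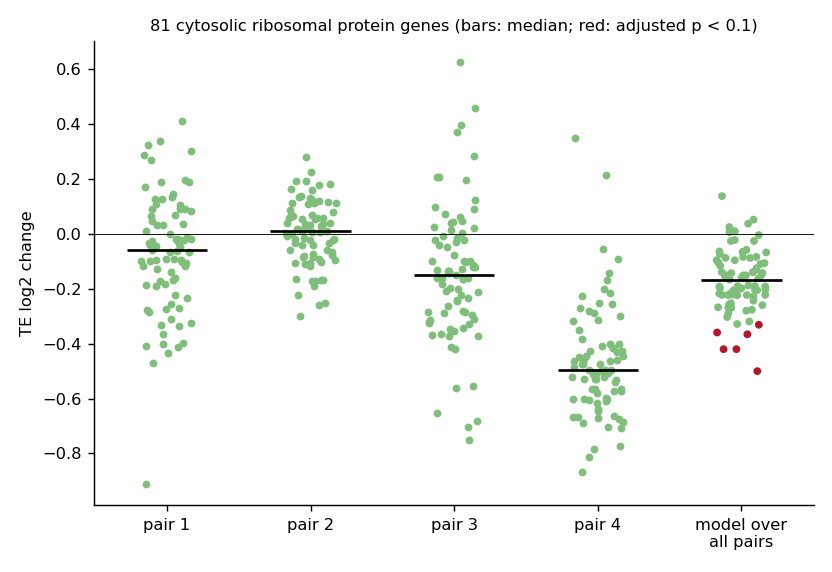
Each point is 1 of 81 ribosomal protein genes, with its log2 change in translational efficiency (TE) in each replicate pair and in the model over all pairs, bars at the medians and genes at an adjusted p under 0.1 in red. The medians are -0.06, 0.01, -0.15 and -0.50 in pairs 1 to 4, and pair 4 lies lowest.

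Other growth-related lists had lower footprints with small efficiency changes. Of 94 ribosome biogenesis genes 12 fell in RPFs (12.8%, beside 3.69% of all genes), with medians of -0.29 in RPFs, -0.20 in total RNA and -0.08 in translational efficiency. In the latter 3.19% were called lower (beside 1.03%) and 1.06% higher (beside 1.89%). Polr1c and Polr1b, subunits of RNA polymerase I, were called lower in translational efficiency at -0.53 (adjusted p = 0.0567) and -0.48 (adjusted p = 0.0574), and Nol6, of small subunit processing, at -0.47 (adjusted p = 0.0920), whereas Ubtf, the factor that opens ribosomal DNA for transcription, was called higher at 0.49 (adjusted p = 0.0559). Of 81 mitosis genes 18 fell in RPFs (22.2%, beside 3.69%), and total RNA had nearly the same median (-0.29 against -0.30). In translational efficiency 0 were called by edgeR or DESeq2 (4 higher and 8 lower at an unadjusted p under 0.05). Aurka and Ccnb1, a mitotic kinase and cyclin, had RPF falls of 0.76 (adjusted p = 0.0374) and 0.69 (adjusted p = 0.0257). Of 24 histone genes 12 fell in RPFs (50%, beside 3.69%) and 3 were called lower in translational efficiency (12.5%, beside 1.03%). The medians were -0.65 in RPFs, -0.39 in total RNA and -0.22 in translational efficiency. Hist1h4d had -0.62 (adjusted p = 0.0420), Hist1h2bj -0.53 (adjusted p = 0.0837) and Hist1h2bb -0.39 (adjusted p = 0.0922). Histone genes are near-identical copies that can exchange reads, and their mRNAs lack the poly(A) tail. Their replicate 4 libraries were low, and without them 41 histone genes had enough counts and 10 were called lower. DESeq2 called 1 lower. With 20 or more counts in every library 16 histone genes remained, with a median of -0.10 and 0 called, and without replicates 1, 2 and 3 the medians were -0.15, -0.28 and -0.12 with 0 called in each.

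Of 123 splicing factors and nuclear RNA-binding proteins tested, 5 were lower (4.07%, beside 1.03% of all genes) and 0 higher by edgeR (16 and 4 at an unadjusted p under 0.05, and 0 and 0 by DESeq2). Without replicate 4 the counts were 9 lower and 5 higher. Sf3b4 (ENSMUSG00000068856.4, chromosome 3), of the SF3B complex, had ratios of 2.42, 2.76, 2.66 and 2.01 in KM_NTC and 1.56, 1.93, 1.60 and 1.57 in KM_4A2cr and a change of -0.57 (standard error 0.12, adjusted p = 0.0327). Srsf1 had -0.35 (adjusted p = 0.0878) and Srsf2 -0.40 (adjusted p = 0.0878), both serine and arginine-rich splicing factors, and Sf3a1 was also among the 5. The replicate 4 libraries of Srsf1 were far below the others, at 19.2 and 9.20 RPF CPM in KM_NTC and KM_4A2cr against 146, 147 and 147 in KM_NTC replicates 1 to 3.

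Among 57 genes of CCR4-NOT, deadenylation and decapping, 4 were called higher (7.02%, beside 1.89% of all genes) and 0 lower (8 and 7 at an unadjusted p under 0.05, 1 and 0 by DESeq2). Cnot6 (ENSMUSG00000020362.14), a deadenylase of CCR4-NOT, had 12.3, 8.75, 13.9 and 4.81 RPF CPM in KM_NTC and 18.2, 12.2, 19.7 and 5.78 in KM_4A2cr and a change of 0.54 (standard error 0.13, adjusted p = 0.0574). Btg3 and Btg1, which bind the deadenylase, had 0.44 (adjusted p = 0.0752) and 0.44 (adjusted p = 0.0983), and Eif4enif1, the eIF4E transporter of repressed mRNAs, 0.47 (adjusted p = 0.0752). Btg1 had an adjusted p of 0.126 without replicate 4, where the list had 3 calls in each direction. The list's median was -0.03, and 0.0062 and 0.0013 under upper-quartile and library-size scaling. Of 76 translation factors 4 were called higher (5.26%, beside 1.89%) and 1 lower (1.32%, beside 1.03%). Igf2bp2 and Eif4enif1 were 2 of the 4, and Paip1, a binding partner of poly(A)-binding protein, had 0.36 (adjusted p = 0.0821). Eif2b5, a subunit of the exchange factor of eIF2, had -0.37 (adjusted p = 0.0924). Actin and myosin genes (72 tested) had Rock1, Rock2 and Arpc2 called higher, at 0.53 (adjusted p = 0.0327), 0.35 (adjusted p = 0.0945) and 0.31 (adjusted p = 0.0985), and Plec called lower at -0.43 (adjusted p = 0.0712). These are 4.17% (beside 1.89%) and 1.39% (beside 1.03%) of the list.

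Further lists had few or no calls. Of 77 mitochondrial ribosomal proteins 1 was called lower (Mrpl3, -0.39 (adjusted p = 0.0948)), of 77 oxidative phosphorylation genes 1 (Atp5g1, -0.37 (adjusted p = 0.0955)) and of 45 proteasome subunits 1 (Psmc6, -0.36 (adjusted p = 0.0656)), with 0 higher in each. The shares called lower were 1.3%, 1.3% and 2.22%, beside 1.03% of all genes. At an unadjusted p under 0.05 the counts were 11, 10 and 4 lower and 1 higher in each, and DESeq2 called 0, 0 and 1 lower and 0 higher. Of 160 zinc-finger genes 5 were called lower (3.12%, beside 1.03%) and 1 higher (0.625%, beside 1.89%), with Zfp101 at -0.83 (adjusted p = 0.0940) and Zkscan17 at 0.66 (adjusted p = 0.0515). Orc2 was the 1 call, higher, among 69 DNA replication genes (1.45%, beside 1.89%). By edgeR and by DESeq2, 0 genes were called among 24 aminoacyl-tRNA synthetases, 49 secreted inflammatory factors, 36 genes of the integrated stress response, 59 chaperones and 41 genes of sterol and fatty acid synthesis. At an unadjusted p under 0.05 these 5 lists held 4, 4, 5, 4 and 7 genes. Insig1, a sterol sensor, rose with its mRNA instead, by 0.98 (adjusted p = 0.0144) in RPFs and 0.70 (adjusted p = 0.0493) in total RNA.

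The genes called higher began with sequence richer in GC than the genes tested overall. RefSeq start windows were found for 133 of the 164 genes called higher and for 7049 of the 8669 tested. The first 50 transcribed bases had a median GC content of 74% in the former (quartiles 68% and 80%) and 66% in the latter (60% and 73%). The 250 bases before the annotated start had medians of 67.6% and 60.8%. The difference was thus not confined to the transcribed bases. The 507 genes with higher RPFs and no call in translational efficiency also lay above all genes, at 70% (62% and 76%), but a start was found for 393 of them, under the 80% needed, so that comparison is void. For the genes called lower the check is void, because a start was found for 71 of 89, also under 80%. In 5 groups of about equal size by this GC content, the median translational efficiency change was -0.07, -0.05, -0.03, 0.0021 and 0.05 from the poorest to the richest, and 10, 16, 15, 39 and 53 genes were called higher, or from 0.709% to 3.76% of each group. The richest minus the poorest group differed by 0.10, 0.08, 0.13 and 0.14 in pairs 1 to 4, with an exact two-sided sign-flip p of 0.125, the smallest that 4 pairs allow. Across 7049 genes, which share libraries and sequence composition, Spearman's rho between GC and translational efficiency was 0.186, and 0.115 to 0.123 in single pairs. GC content also bears on how well fragments are copied and sequenced, and its part in the result was not tested. The first 30 bases after the start are shown for the 5 genes of each direction with the smallest p among those with 1 annotated start and 1 sign in 4 pairs, as RefSeq sequence of GRCm38.p6 in transcribed direction, with G and C in capitals. The genes called higher are these.
Amd1 (chr10:40302159-40302188, minus strand): tCGCttaCaCaGtatGGCCGGCGaCattaG
Prkar2a (chr9:108692143-108692172, plus strand): aCaaCCCGGGCGCCtGCCGCGCCCGtCCaG
Slc30a4 (chr2:122702634-122702663, minus strand): aGtGGCtGGGGCtCGGCCtCGGtCCCtGGC
Lrrc8b (chr5:105415775-105415804, plus strand): CaatGGaGCGGCtCCGGGGCGGCGaGCCGG
Ei24 (chr9:36797305-36797334, minus strand): aGtGtGGGCGCaGCCCCGGCtCtCCGaGCG
The genes called lower are these.
Samhd1 (chr2:157135067-157135096, minus strand): GGtaGCCatGCaGaGCGCaCCCttGGaGCa
Akr1a1 (chr4:116651645-116651674, minus strand): GGGCGCGGCCaGCCaCCCaaGaCtGtCCaC
Sec16a (chr2:26445187-26445216, minus strand): aCGtCGGCGGCGGCaCCtGGaGCCGGatGt
Cmtm4 (chr8:104395778-104395807, minus strand): tttCCGCtGCCGaGGCGGCGGGaGCCGaGC
Tuba4a (chr1:75219265-75219294, minus strand): CGCCtCCtGCCtataaGaGCGGtGCGGCaC
Within the first 50 bases GC was 80% in Prkar2a, 76% in Slc30a4, 82% in Lrrc8b and Ei24 and 56% in Amd1, the exception among the 5. In the genes called lower it was 66% in Samhd1 and Akr1a1, 72% in Sec16a, 80% in Cmtm4 and 64% in Tuba4a. Cmtm4 and Tuba4a had translational efficiency changes of -0.48 and -0.48 (adjusted p = 0.0276 and 0.0285).

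The genes called higher also had few footprints for their mRNA. RPF CPM per total RNA CPM, averaged over both lines and not divided by coding length, had a median of 0.330 in the genes called higher, 0.938 in those called lower and 0.863 in all genes tested. Median total RNA was 123, 72.9 and 41.1 CPM in the same order, and median RPFs were 35.5, 54.0 and 30.8 CPM. The low ratio of the genes called higher thus went with more mRNA, not with fewer footprints, than in all genes. Of the 164 genes, 100 were in the lowest 2 of 10 equal groups by this ratio and 5 in the highest 4. Of the 89 genes called lower, 22 were in the lowest 2 and 38 in the highest 3. The median change ran from 0.11 in the lowest group to -0.09 in the highest. The lowest minus the highest differed by 0.22, 0.06, 0.35 and 0.20 in pairs 1 to 4 (exact two-sided sign-flip p = 0.125, the smallest possible). The ratio comes from the same libraries as the change, and it falls with transcript length, whose median was 3451 bases in the genes called higher and 2829 in all. Within the lowest 4 of 5 groups by the ratio, the median GC of the 82, 31, 17 and 3 genes called higher was 73%, 74.5%, 74% and 70%, against 68%, 67%, 66% and 66% in genes not called.

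**Figure D5:**
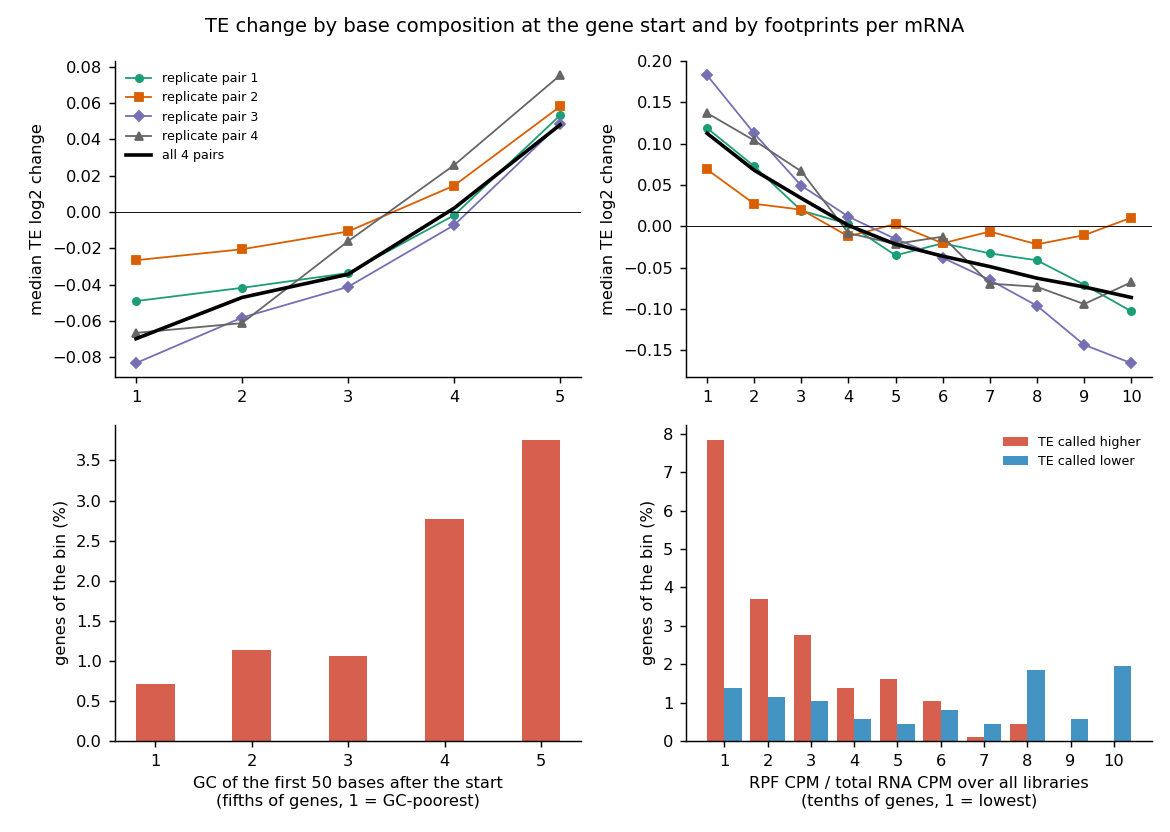
Upper panels give the median log2 change in translational efficiency (TE) for each replicate pair and for all 4 pairs, in 5 groups by GC content of the first 50 transcribed bases (left) and 10 groups by RPF CPM per total RNA CPM (right). Lower panels give the share of each group called higher (red) or, on the right, lower (blue), where the share called higher rises from 0.709% to 3.76% with GC content and falls from 7.84% in the lowest ratio group to 0% in the highest.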

How the data were processed

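RPFs and cytoplasmic total RNA of KM_NTC and KM_4A2cr cells were measured in 4 lysates each. RPF files hold counts per coding sequence, whole numbers as deposited by the authors, who trimmed reads with cutadapt 1.18, removed duplicates with UMI-tools 1.0.1, aligned with BBmap to 1 abundant transcript per gene (GENCODE vM27 protein-coding) and left out the ends of the coding sequence. For total RNA the authors deposited RSEM 1.3.3 expected counts per isoform after Bowtie2 2.3.5.1, which were summed per gene and rounded. The authors tested each kind with DESeq2.

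Tests used edgeR 4.0.16 in R 4.3.3 (glmQLFit and glmQLFTest). TMM factors were computed within each kind, so a global change of footprints or mRNA leaves no trace. The interaction model had terms for lysate, kind, replicate within kind and line by kind, and RPFs and total RNA were fitted alone with line and replicate, all on genes with 10 or more counts in every library, with Benjamini-Hochberg adjustment and a threshold of 0.1. The interaction test was tried on simulated data, whereas the tests of RPFs alone, of total RNA alone and by DESeq2 were not. By the labels, replicates were made on different days. Deviations of KM_NTC and KM_4A2cr libraries of 1 number from their line means correlated at 0.625 to 0.840 in RPFs and 0.666 to 0.776 in total RNA, so the numbers pair the libraries. For the log2 difference of RPFs and total RNA, on which translational efficiency rests, the correlations were lower. They were 0.509, 0.534, 0.202 and 0.507 for replicates 1 to 4. P-values measure the spread between days of 2 lines, with no second targeted line.

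Named genes were the 12 highest and 12 lowest calls with 1 sign in 4 pairs and 5 or more mean CPM in both kinds, the offset genes, up to 4 called members of each list (or 2 uncalled), the 10 largest total RNA changes with RPFs within 0.2 of 0, the 8 largest calls with flat mRNA, up to 8 reinforced genes, 4 mRNA-led genes in each direction and Eif4a1, Eif4a2, Eif4a3, Cdkn1a, Cdkn2a and Ebag9. Some genes that the rule named are not reported here. The members and the 27 lists were chosen with earlier results of these data known. Odc1, Srm, Sms, Fth1, Ftl1, Rpl34, Sf3a1, Srp9, Slc25a37, Cmtm4, Tuba4a, Man1a2 and Man2a1 were named after their values were seen. RefSeq start windows (GRCm38.p6) were matched by symbol and, for 98 genes, by synonym. The genome build and annotation of the files were not used here. Alternatives were no replicate block, no lysate terms, DESeq2 1.42.0, 3 scalings, 3 filters, a threshold of 0.05, counts of the RPF isoform only and each replicate left out.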

Additional observations from a re-analysis of the deposited data

Results flagged for a closer look

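A library was marked where, among the 4 of a line and kind, the highest or lowest CPM of a named gene was separated from the next by a share of the range above Dixon's 95% critical value. Of 476 groups of 4 tested, 49 (10.3%) were marked, where chance marks about 1 in 20, and 39 of the 49 marks fell on replicate 4, 4 on replicate 1, 5 on replicate 2 and 1 on replicate 3. The genes share libraries, so the marks are not independent. The share of the range is given after each gene.

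In KM_NTC RPFs, replicate 4 was highest and apart for Tmf1 (0.898), Eif4a2 (0.918), Hexa (0.955) and Pxylp1 (0.925). In KM_NTC RPFs, replicate 4 was lowest and apart for Zfp407 (0.934), Polr1c (0.909), Srsf1 (0.992) and Hist1h2bb (0.987). Other libraries of this group were apart for Mapk6 in replicate 1 (highest, 0.860), Plec in replicate 1 (lowest, 0.894), Oaz1 in replicate 2 (lowest, 0.956) and Ppox in replicate 1 (lowest, 0.867).

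In KM_NTC total RNA, replicate 4 was highest and apart for Atp5g1 (0.836), Ppox (0.905), Eif4a2 (0.896), Hexa (0.950) and Pxylp1 (0.924). In KM_NTC total RNA, replicate 4 was lowest and apart for Igf2bp2 (0.835), Hist1h4d (0.920), Paip1 (0.896), Orc2 (0.875), Hist1h2bj (0.973), Srsf1 (0.858) and Hist1h2bb (0.959). Other libraries of this group were apart for Mapk6 in replicate 1 (highest, 0.944) and Cebpg in replicate 3 (highest, 0.879).

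In KM_4A2cr RPFs, replicate 4 was highest and apart for Rpl37a (0.892), Btg1 (0.903), Eif4a2 (0.868), Hspa1a (0.910), Hexa (0.935) and Pxylp1 (0.992). In KM_4A2cr RPFs, replicate 4 was lowest and apart for Srsf1 (0.886). Other libraries of this group were apart for Psmc6 in replicate 2 (highest, 0.892), Ndufaf7 in replicate 2 (highest, 0.864) and Aurka in replicate 2 (highest, 0.925).

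In KM_4A2cr total RNA, replicate 4 was highest and apart for Polr1c (0.844), Rps15 (0.935), Rpl37a (0.837), Atp5g1 (0.891), Hspa1a (0.964), Hexa (0.914) and Pxylp1 (0.986). In KM_4A2cr total RNA, replicate 4 was lowest and apart for Cnot6 (0.927), Orc2 (0.969), Srsf1 (0.836), Mrpl3 (0.835) and Eif4a1 (0.838). Other libraries of this group were apart for Rock1 in replicate 2 (highest, 0.852).

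Wide gaps were those of Srsf1 in KM_NTC RPFs (19.2 CPM against 146 to 147 in the others), Hist1h2bb in KM_NTC RPFs (10.4 CPM against 78.3 to 79.2) and Hexa in KM_NTC RPFs (531 CPM against 36.9 to 59.0). Replicate 4 stood apart in the same direction in both lines for the RPFs of Srsf1 (lowest) and of Eif4a2, Hexa and Pxylp1 (highest). The same held for the total RNA of Srsf1 and Orc2 (lowest) and of Atp5g1, Hexa and Pxylp1 (highest). Of the 85 genes kept under the naming rule and called in translational efficiency, 81 were also called without replicate 4, with all 85 in the same direction.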

How the results depend on the processing

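In every alternative, all genes called in translational efficiency that were still tested kept their direction, and the calls depended on the model. The alternatives reuse the libraries from which the genes were called. Agreement in direction was therefore favoured in advance and is no separate support. Counts that moved by over 1.5 times are given by setting. Without the replicate block, there were 0 genes higher in translational efficiency, lower in translational efficiency, higher in RPFs, lower in RPFs, higher in total RNA, lower in total RNA, mRNA-led, translation only, offset, reinforced, called in translational efficiency alone and called in total RNA with near-flat footprints. Without lysate terms, there were 0 genes higher in translational efficiency, lower in translational efficiency, translation only, offset, reinforced and called in translational efficiency alone. With DESeq2, there were 86 genes higher in translational efficiency, 36 genes lower in translational efficiency, 39 genes translation only, 8 genes offset and 68 genes called in translational efficiency alone. With upper-quartile factors, there were 58 genes lower in translational efficiency, 217 genes higher in total RNA and 178 genes lower in total RNA. With library-size scaling, there were 100 genes higher in translational efficiency, 21 genes lower in translational efficiency, 990 genes lower in RPFs, 219 genes higher in total RNA, 805 genes lower in total RNA, 587 genes mRNA-led, 43 genes translation only, 3 genes reinforced, 58 genes called in translational efficiency alone and 96 genes called in total RNA with near-flat footprints. With the filterByExpr filter, there were 176 genes lower in total RNA and 13 genes reinforced. With no filter beyond 1 count per kind, there were 303 genes higher in translational efficiency, 167 genes lower in translational efficiency, 505 genes higher in total RNA, 254 genes lower in total RNA, 471 genes mRNA-led, 136 genes translation only, 26 genes offset, 22 genes reinforced and 285 genes called in translational efficiency alone. At an adjusted p under 0.05, there were 49 genes higher in translational efficiency, 15 genes lower in translational efficiency, 270 genes higher in RPFs, 96 genes lower in RPFs, 131 genes higher in total RNA, 27 genes lower in total RNA, 117 genes mRNA-led, 23 genes translation only, 41 genes called in translational efficiency alone and 3 genes called in total RNA with near-flat footprints, and 0 genes offset and reinforced. With total RNA of the RPF isoform only, there were 223 genes higher in total RNA, 73 genes lower in total RNA, 2 genes reinforced and 16 genes called in total RNA with near-flat footprints. Leaving out each replicate in turn gave 3 to 517 genes higher in translational efficiency, 0 to 309 genes lower in translational efficiency, 0 to 1924 genes higher in RPFs, 0 to 1363 genes lower in RPFs, 14 to 1842 genes higher in total RNA, 1 to 1257 genes lower in total RNA, 0 to 1939 genes mRNA-led, 0 to 327 genes translation only, 0 to 179 genes offset, 0 to 142 genes reinforced, 2 to 151 genes called in translational efficiency alone and 0 to 543 genes called in total RNA with near-flat footprints, each with its highest count without replicate 4. Scaling moved the share of higher calls from 64.8% to 80.1% (upper-quartile, 234 higher and 58 lower) and 82.6% (library size), and library-size scaling moved the median of all genes to -0.13 in RPFs and -0.14 in total RNA. No called gene was reversed. Uncalled changes near 0 took the other sign under some settings. Leaving out each replicate in turn gave -0.0176 to 0.198 for Fcna, -0.0042 to 0.0917 for Nid1, -0.0500 to 0.0726 for Hexa, -0.206 to 0.0815 for Lgals9, -0.035 to 0.206 for Pxylp1 and -0.13 to 0.126 for Serpinb9b. Hexa was at 0.0132 with upper-quartile factors and 0.0227 with library-size scaling, and Serpinb9b at -0.0064 with the RPF isoform only. The causes were not tested. The model has 3 residual degrees of freedom. Without replicate 3 the median translational efficiency change was 0.10 for glycosylation genes and 0.12 for polyamine and iron genes.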
